A study of Mus musculus with 12 samples.

Results

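Outside mitochondrial DNA, the strongest Ku70 regions of mouse conventional T cells (Tconv) lay in or near 2 protein-coding genes. The first was in the first intron of Mdga2 on chromosome 12. The second was 12.0 kb beyond the end of Sfi1 on chromosome 11, its nearest protein-coding gene. Both genes were chosen by the −log10 q of these regions in the Tconv Ku70 list, so their strength there is described and not tested. All regions with a summit in either gene or within 100 kb of it were then collected from the 4 deposited lists of enriched regions, which gave 21 of 9381 regions. None came from the WT FOXP3 list, 1 from the KO FOXP3 list, 13 from the Treg Ku70 list and 7 from the Tconv Ku70 list.

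The lists came from chromatin immunoprecipitation sequencing of T cells sorted from the spleen and lymph nodes of C57BL/6J mice. Ku70 was profiled in regulatory T cells (Tregs, CD4+CD25+YFP+) and in Tconv cells (CD4+CD25-YFP-) of Foxp3 Yfp-Cre mice, in which the Foxp3 locus drives Cre and YFP. FOXP3 was profiled in Tregs of the same genotype (WT) and of Foxp3 Yfp-Cre Xrcc6 fl/fl mice (KO), which lose the Ku70 gene in cells that express Foxp3. The Cre allele was therefore present in every group, and ages for these samples were not given in the sources used here. Each list was called on 2 pooled replicates against 1 input, which leaves no measure of replicate spread, and a site missing from a list is one that did not pass the caller's p-value of 0.05, not a measured loss. Within the files, regions are named with iTreg, Teff or CKO instead of Treg, Tconv or KO, and groups were assigned by the labels.

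Ku70, encoded by Xrcc6, forms with Ku80 a ring that slides onto DNA ends and starts their repair by non-homologous end joining. Mdga2 encodes a GPI-anchored adhesion protein of the immunoglobulin superfamily that binds neuroligins and is best known from synapses, and Sfi1 encodes a centrin-binding protein of the centrosome. Neither gene is a known lineage marker of T cells. Mouse chromosomes begin at a centromere flanked by major satellite, a tandem repeat of very high copy number that the genome assembly holds only in part.

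The Mdga2 site lies inside a tandem repeat, and its units are shown because they are the part of the sequence that recurs. The Tconv region chr12:67059329-67059635 (mm10, 307 bp) contains the 12-base word CTGGAATATGGC 4 times, more often than any other word of that length, and 5 times when 1 base may differ. Cut at this word, the stretch around the summit falls into the following units, read on the plus strand from chr12:67059350-67059581, with the word or its form with 1 different base in capitals.
Unit 1: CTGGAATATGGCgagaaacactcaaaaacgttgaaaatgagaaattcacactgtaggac
Unit 2: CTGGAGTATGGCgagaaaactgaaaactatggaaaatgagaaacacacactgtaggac
Unit 3: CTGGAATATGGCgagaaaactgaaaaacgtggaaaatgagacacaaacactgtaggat
Unit 4: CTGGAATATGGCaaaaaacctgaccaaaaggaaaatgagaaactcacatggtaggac
The units are 59, 58, 58 and 57 bases long, and the Tconv summit, at position 67059407, is near the end of unit 1. The array as a whole ran for 842 bp, from 67059132 to 67059973, with the word, exact or with 1 base different, 12 times at distances of 57 to 61 bp (median 59). Shifted along itself, the array matched at 53.9% of bases at 59 bp, 48.3% at 117 bp and 42.4% at 175 bp, against a median of 29.4% over shifts of 10 to 300 bp. The word and its spacing resemble the short internal repeats of mouse major satellite as known from textbooks. At 234 bp, the length of a full unit of that satellite, the match was 38.2%, next to a local peak of 40% at 232 bp. Both values were above the median but lower than at 59, 117 and 175 bp and at 290 bp (48.0%). No repeat annotation was given with the genome, so the array is not named further.

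The site beyond Sfi1 is a repeat of another kind, with longer units. Its sequence is shown with its closest copy because the 10 bases at which they differ are what separates one unit from the other. The site is chr11:3119775-3119956 and the copy chr11:3121838-3122019, both of 182 bp on the plus strand, with the differing bases in capitals.
Site: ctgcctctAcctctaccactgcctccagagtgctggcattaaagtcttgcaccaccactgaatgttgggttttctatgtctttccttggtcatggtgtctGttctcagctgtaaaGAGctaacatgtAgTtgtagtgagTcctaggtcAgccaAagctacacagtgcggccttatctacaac
Copy: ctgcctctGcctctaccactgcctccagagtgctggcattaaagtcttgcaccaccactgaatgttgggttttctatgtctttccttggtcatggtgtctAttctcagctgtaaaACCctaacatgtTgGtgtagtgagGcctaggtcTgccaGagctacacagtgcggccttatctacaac
The site was 1 of 21 copies on the same strand between positions 3112222 and 3123072, a stretch of 10.9 kb. The distance from the start of one copy to the next had a median of 360 bp and ranged from 310 to 2961 bp. The other 20 copies were 82.4% to 94.5% identical to the site, and 0 of them overlapped a region of any list. A further 11 copies lay elsewhere, 3 on unplaced contigs and 8 in the first 4 Mb of 4 chromosomes, and the closest of these was 88.3% identical.

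**Figure D1:**
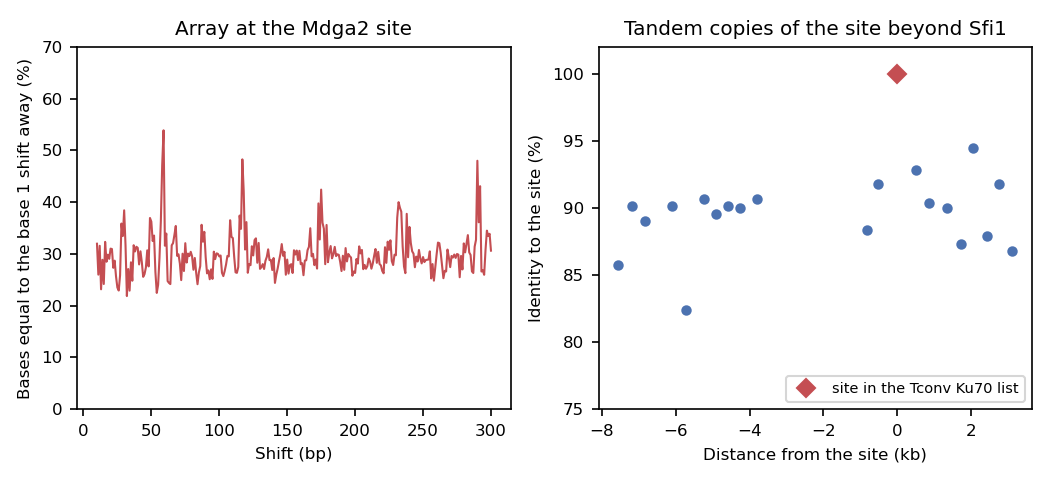
Left, share of bases (%) in the array at the Mdga2 site that equal the base 1 shift away, by shift (bp), with peaks at 59 bp (53.9%), 117 bp (48.3%) and 175 bp (42.4%). Right, identity (%) to the Tconv Ku70 site beyond Sfi1 of the 20 other copies (circles, 82.4% to 94.5%), by distance from the site (kb).

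The Mdga2 site was shared by both Ku70 lists and by neither FOXP3 list. In Tconv it had a fold enrichment over input of 2.67, a −log10 p of 11.2 and a −log10 q of 4.37, the first place among 1783 nuclear regions. In Tregs the region chr12:67059328-67059473 had a fold enrichment of 2.49, a −log10 p of 8.17 and a −log10 q of 2.23, place 5 among 5287 nuclear regions. The regions shared 145 bp and their summits were 10 bp apart. The nearest WT FOXP3 region was 491 kb away and the nearest KO FOXP3 region 2739 kb. Mdga2 is 756.5 kb long on the minus strand (chr12:66466060-67222549), and the site is in intron 1 of its 17-exon transcript Mdga2-210, 163 kb downstream of the gene start and 161563 bp from the closest exon.

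The remaining regions in Mdga2 were weak and came from the Treg Ku70 list alone. The region chr12:66521922-66522076 in intron 10 had a fold enrichment of 2.60 and a −log10 p of 2.64, and chr12:66945883-66946090 in intron 1 had 1.79 and 1.47. Both had a q-value of 1, at places 351 and 2550 of the list. Sequence set them apart from the leading site and from each other. The intron 10 region was 14.2% repeat-masked with no copy of 80% identity or more, whereas the summit of the other intron 1 region, fully masked, carried 31 bases that occur 5958 times in the genome.

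**Figure D2:**
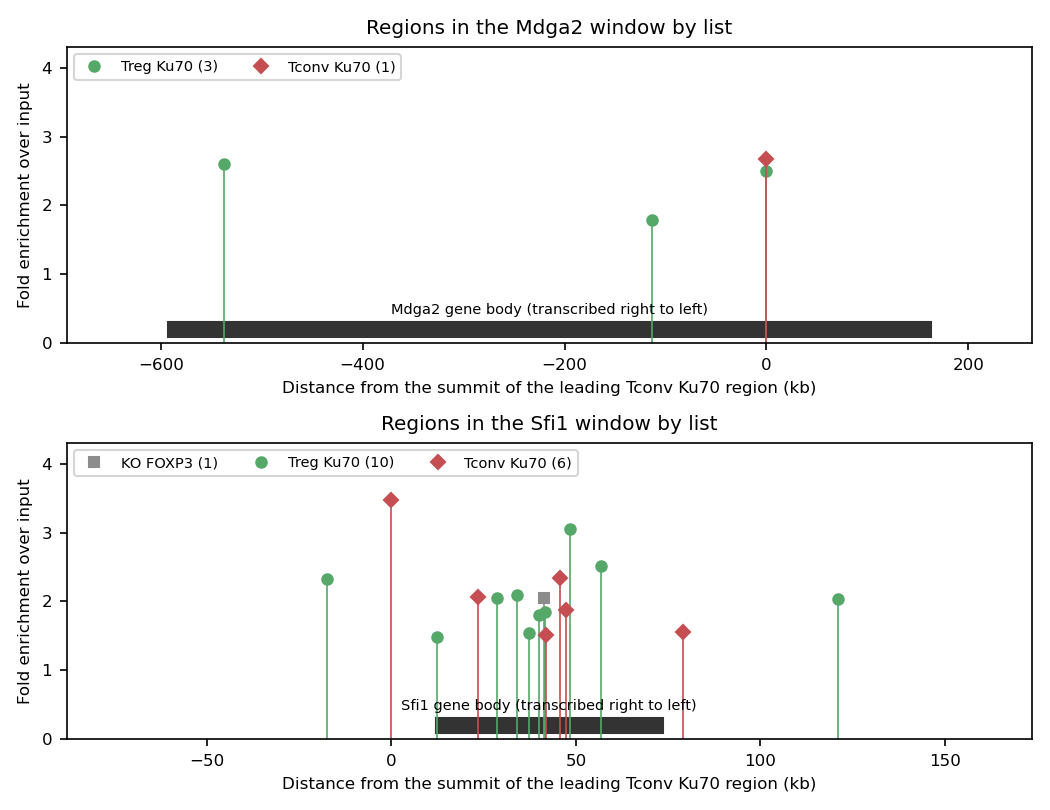
Fold enrichment over input of the 21 regions by distance (kb) from the summit of the leading Tconv Ku70 region, in the Mdga2 window (top) and the Sfi1 window (bottom), with symbols by list and a bar for the gene. In Mdga2 the Tconv region (2.67) and a Treg region (2.49) coincide at 0, whereas at Sfi1 the Tconv region at 0 (3.47) stands alone and most others lie in the gene.

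The site beyond Sfi1 was listed in Tconv only. It had a fold enrichment of 3.47, a −log10 p of 7.61 and a −log10 q of 1.31, place 2 in the list. The next place, just outside the choice, was held by a region in Speer4e on chromosome 5 with a −log10 q of 1.00 and a fold enrichment of 2.76. The fourth, with 0.88 and 3.58, was 92.8 kb from Kcnh5, a potassium channel gene on chromosome 12, and the fifth, with 0.75 and 4.59, was on an unplaced contig. Around the Sfi1 site the nearest Treg Ku70 region was 12.4 kb away, the nearest KO FOXP3 region 41.1 kb and the nearest WT FOXP3 region 1598 kb. The pseudogene Pisd-ps1 (chr11:3125904-3131004) lies between the site and Sfi1.

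Sfi1 differed from Mdga2 in that regions were dense along the gene. Its window of 261.6 kb held 10 Treg Ku70, 6 Tconv Ku70 and 1 KO FOXP3 regions, 38.2, 22.9 and 3.82 per Mb, against 1.92, 0.625 and 0.192 per Mb over all assembled chromosomes. These are 19.9, 36.7 and 19.9 times the overall density. In the Mdga2 window of 956.5 kb the same ratio was 1.64 for Treg Ku70 and 1.67 for Tconv Ku70. Of 21911 protein-coding genes, 35.4% had at least 1 Treg Ku70 region in their window and 17.2% a Tconv Ku70 region, while WT FOXP3 reached 12.0% and KO FOXP3 4.25%, so the presence of a region at a member is common for Treg Ku70. At least 10 Treg Ku70 regions, the number at Sfi1, were found for 33 genes (0.151%), and at least 6 Tconv Ku70 regions for 49 genes (0.224%). Among 3245 genes within 1.5 times the length of Sfi1, 6 others had as many Treg Ku70 regions and 7 as many Tconv Ku70 regions. For the 188 genes of a length like that of Mdga2, 50 had 3 or more Treg Ku70 regions and 27 had a Tconv Ku70 region. The windows of neighbouring genes overlap, so these genes are not independent of each other. The Tconv Ku70 counts of both members include the region by which the gene was chosen, and at Mdga2 it is the only one. The Tconv ratios and shares are therefore descriptions and lend no weight to the choice.

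**Figure D3:**
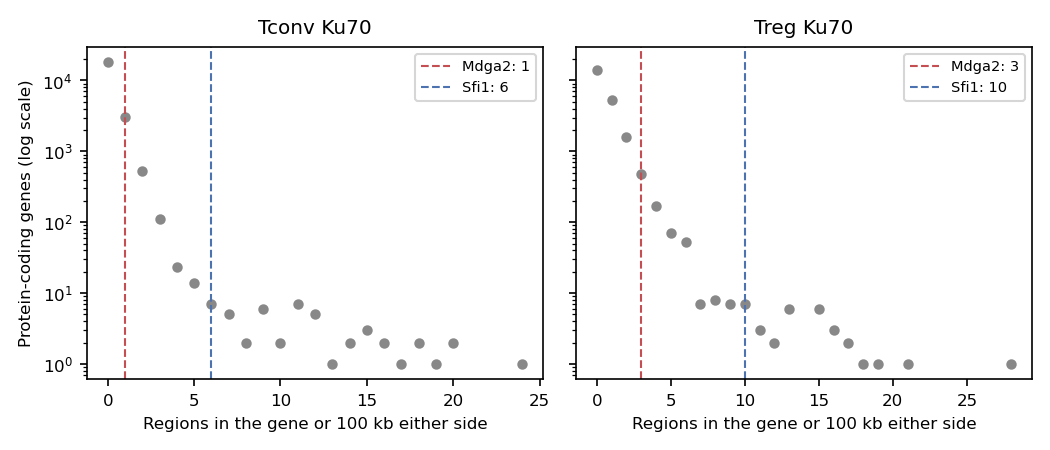
Number of protein-coding genes (log axis) by the number of Tconv Ku70 (left) or Treg Ku70 (right) regions in the gene or 100 kb either side, with dashed lines at the members. Sfi1, with 6 and 10 regions, lies where few genes are found (0.224% and 0.151% have as many), and Mdga2, with 1 and 3, does not. The Tconv counts of the members include the regions by which they were chosen.

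Of the 17 regions in the Sfi1 window, 13 had their summit in the gene (chr11:3131850-3193463, minus strand, 61.6 kb, 33 exons in transcript Sfi1-202), 12 in introns and 1 in an exon of this transcript. The exonic one was the Tconv region chr11:3165231-3165709 in exon 8, with a fold enrichment of 2.34 and a −log10 p of 3.90. The strongest Treg region of the window, chr11:3168086-3168225 in intron 7, had 3.05 and 6.70 and held place 9 of the Treg list with a −log10 q of 0.93. The second strongest Treg region there, chr11:3176528-3176673 in intron 6, had 2.52 and 5.06. In intron 9 the lists came closest. The Treg region chr11:3161547-3161809 (1.84, −log10 p 4.20) was covered over all its 263 bp by the Tconv region chr11:3161540-3161822 (1.51, −log10 p 1.84), with summits 207 bp apart. The only KO FOXP3 region, chr11:3161043-3161200 (2.04, −log10 p 2.98), ended 340 bp before that Tconv region, and no WT FOXP3 region was listed in the window.

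Further Tconv regions in the gene were chr11:3143286-3143441 in intron 19 (fold enrichment 2.06) and chr11:3167154-3167451 in intron 7 (1.87). The other Treg regions in the gene had fold enrichments from 1.48 to 2.09. They lay in intron 31 (chr11:3132316-3132503), 14 (chr11:3148417-3148747), 13 (chr11:3153731-3153954), 11 (chr11:3157084-3157321) and 10 (chr11:3159817-3159981). The summit in intron 31 was 17 bp from an exon of Sfi1-202 and within an exon of another transcript. Of all 21 regions, 17 had a q-value of 1.

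Drg1, which encodes a GTP-binding protein, overlaps the start of Sfi1 and extends beyond it (chr11:3187360-3266415). Further beyond the start, the window takes in Eif4enif1, which encodes the eIF4E transporter of translational control, and part of Patz1, a zinc finger gene. A Tconv region lay 5.50 kb before the Sfi1 start within Drg1 (chr11:3198898-3199210; 1.56, −log10 p 2.63), and a weak Treg region lay where Drg1 and Eif4enif1 overlap (chr11:3240862-3241001; 2.04, −log10 p 1.47). No summit of any list lay in the part of Patz1 inside the window. On the opposite side, 29.4 kb beyond the end of Sfi1, the Treg list held chr11:3102380-3102576 with a fold enrichment of 2.32 and a −log10 p of 3.01.

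The Sfi1 gene is itself duplicated in the assembly. All 13 regions in the gene had a copy on a single unplaced contig of 114.5 kb, at an identity of 97.8% to 100%. Copies of at least 97% identity on that contig covered 66.3% of the bases of the gene and 18.3% of the window. None of the 4 regions outside the gene had one. At 12 of the 13 summits the 31 central bases occurred more than once in the genome. Over their whole length 0 to 29.6% of their bases were masked, with a median of 20.7%, against a median of 18.2% in the Treg Ku70 and 17.3% in the Tconv Ku70 list. Within 50 bp of the summit the masked share ran from 0 to 98.0%, the highest in the intron 14 Treg region, against a median of 20.8% in both Ku70 lists. Reads that fit several copies equally well cannot be assigned to one place with certainty. How many reads did so is not known, as the copies were not all identical and mapping qualities were not analysed here. Counted without these 13 regions, an alternative chosen after seeing the data, the window held 2 Treg Ku70, 2 Tconv Ku70 and 0 KO FOXP3 regions.

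Both leading sites were partly masked, the Mdga2 site over 79.8% and the Sfi1 site over 58.2% of their bases. Each was nevertheless unique by the 31 bases around its summit, which occurred 1 time in the genome, as they did for most regions of the list (32.9% of Tconv Ku70 regions had more than 1 copy). Over the central 21 bases, copies rose to 11 for Mdga2 and 20 for Sfi1. By alignment over at least 80% of the region, the Sfi1 site had 12 copies of at least 90% identity, all on chromosome 11. The Tconv region at Mdga2 had 0 such copies but 574 at 80% identity or more, 449 of them on unplaced contigs, 116 on other chromosomes and 9 on chromosome 12. Of the copies on assembled chromosomes, 110 lay in the first 4 Mb. The shorter Treg region at the same site had 4 copies of at least 90% identity, the closest of them (91.1%) at chr11:3103916-3104061 in the Sfi1 window, and 1392 at 80% or more.

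The closest of the 574 copies of the Tconv region, 88.8% identical, was the site of another strong Tconv Ku70 region. It spanned chr12:74804238-74804505 and included the region at place 4 of the list, which is printed on the minus strand (chr12:74804253-74804426) to set it beside the units of the Mdga2 site. The Treg region 29.4 kb beyond Sfi1 carried the same kind of sequence (chr11:3102380-3102576, minus strand), so the repeat type of the Mdga2 site was also present in the Sfi1 window. Capitals again mark the 12-base word with at most 1 base different.
Chromosome 12, place 4: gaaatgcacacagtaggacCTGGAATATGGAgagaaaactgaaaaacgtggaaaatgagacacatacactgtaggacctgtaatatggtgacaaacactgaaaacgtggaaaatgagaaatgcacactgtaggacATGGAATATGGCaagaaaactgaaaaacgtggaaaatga
Beyond Sfi1, Treg: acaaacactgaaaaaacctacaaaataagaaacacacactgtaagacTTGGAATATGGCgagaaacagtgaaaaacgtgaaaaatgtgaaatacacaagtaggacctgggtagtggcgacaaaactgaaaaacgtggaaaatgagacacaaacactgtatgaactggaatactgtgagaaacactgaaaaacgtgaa
Regions alike to the array at the Mdga2 site, with at least 80% identity over 100 bp, were sought on assembled chromosomes only. Regions on contigs were not searched. These were 79 in the Tconv Ku70, 63 in the Treg Ku70, 31 in the WT FOXP3 and 12 in the KO FOXP3 list. On assembled chromosomes, the Tconv Ku70 list held 3 of 1704 (0.176%), the Treg Ku70 list 4 of 5224 (0.0766%), the WT FOXP3 list 1 of 1712 (0.0584%) and the KO FOXP3 list 0 of 523. The Mdga2 site itself is counted for both Ku70 lists. A Tconv region at chr3:56575493-56575719 (2.11) and the WT FOXP3 region that overlaps it, chr3:56575486-56575665 (2.65), were among them. The exact word CTGGAATATGGC was sought on both strands of the regions on assembled chromosomes. It was present in 1 Tconv Ku70 region (0.0587%), 2 Treg Ku70 regions (0.0383%) and 0 FOXP3 regions. In the genome it occurred 487 times on assembled chromosomes (0.184 per Mb) and 408 times on unplaced and unlocalized contigs (76.5 per Mb). On assembled chromosomes the Sfi1 site had no region alike in any list but itself.

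The fold enrichment of the Mdga2 site was not exceptional. In the Tconv Ku70 list 183 nuclear regions, the site included, had a fold enrichment of at least 2.67, and 15 had at least the 3.47 of the Sfi1 site. In the plot of fold enrichment against −log10 p, the Mdga2 site stands above regions of the same fold enrichment in both cell types. For Tconv this follows from the choice of the site, which led that list by −log10 q and also by −log10 p. The Treg list was not used for the choice.

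**Figure D4:**
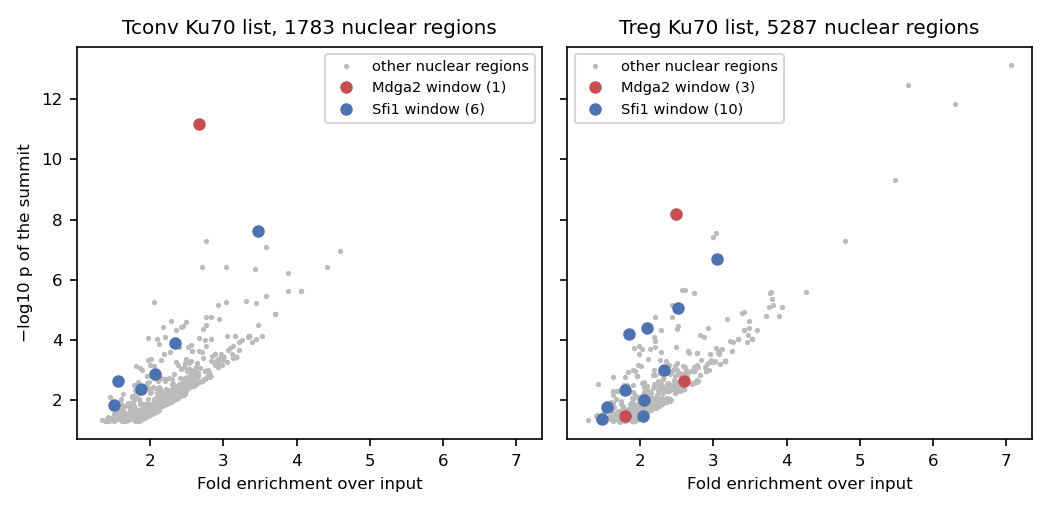
Fold enrichment over input against −log10 p of the summit for the nuclear regions of the Tconv Ku70 (left, 1783) and Treg Ku70 (right, 5287) lists, with the regions of the Mdga2 and Sfi1 windows coloured. The Mdga2 site (2.67 and 11.2 in Tconv, 2.49 and 8.17 in Treg) lies above other regions of like fold enrichment, which in Tconv follows from how it was chosen.

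The fold enrichment and p-value of each summit were solved for read numbers. At the Mdga2 summit 109 reads of the pooled Tconv replicates were counted (95% interval 89.5 to 131), the highest number among the nuclear Tconv regions that could be solved, over an input background of 22. In Tregs the numbers were 95 reads (76.9 to 116) over an input background of 19. The input there was 10.4 times the genome-wide background in Tconv and 10.8 times in Tregs. Immunoprecipitated reads, scaled to the input, were 2.75 times the input in Tconv (1.73 to 4.56) and 2.57 times in Tregs (1.56 to 4.46). These intervals cover counting error only, overlap widely, and the difference between cell types was not tested. High coverage of this stretch was thus present in the input, without immunoprecipitation, and its part in the region's place was not tested.

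At the Sfi1 site 42 Tconv reads (30.3 to 56.8) stood over an input background of 6, 2.84 times the genome-wide value. The scaled ratio was 3.88 (1.64 to 11.2), with an interval that contains that of the Mdga2 site. By immunoprecipitated reads alone the Sfi1 site held place 29. The region at place 4, alike to the Mdga2 site, had 37 reads over an input background of 5.

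In the Sfi1 window the input was raised at nearly all regions. It was at least 2 times the genome-wide background in 6 of 6 Tconv Ku70 regions, 9 of 10 Treg Ku70 regions and the KO FOXP3 region. Among all nuclear regions of these lists that could be solved, the shares were 11.2%, 3.95% and 6.57%. Within the gene the ratio ran from 2.70 to 13.0. The overlapping regions in intron 9 had input backgrounds of 23 in Tregs, with 84 reads, and 16.9 in Tconv, with 47 reads. The Tconv region in Drg1, with 90.1% of its bases masked, had the largest number of the window in that list, 74 reads over an input background of 26. Its scaled ratio was 1.58 (0.997 to 2.57). The 31 bases around its summit occurred 1 time in the genome, and it had no copy of 80% identity or more. The weak Treg region shared by Drg1 and Eif4enif1 had 9 reads over the genome-wide background. It was masked over 41.4% of its bases and had no copy of 80% identity or more. The part of raised input and of copied sequence in these regions was not tested.

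**Figure D5:**
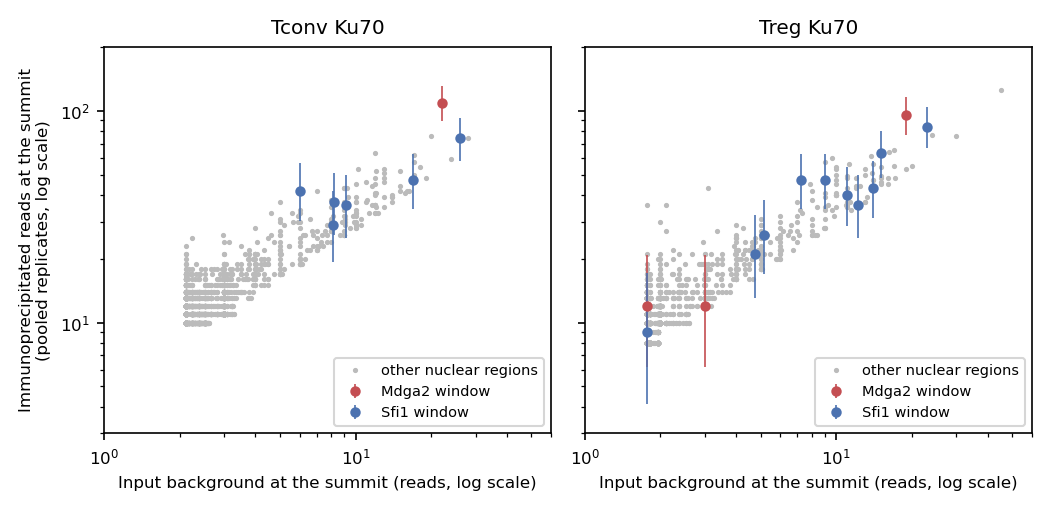
Reads of the pooled immunoprecipitated replicates at the summit against the input background the caller used there (both log axes, reads), for nuclear regions of the Tconv Ku70 (left) and Treg Ku70 (right) lists; bars are 95% Poisson intervals of the counts. The Mdga2 site (109 over 22 in Tconv, 95 over 19 in Treg) and most Sfi1 regions lie far to the right of the bulk of regions.

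Genes related to the members by function were looked up as 3 groups. Of 8 MDGA, neuroligin and neurexin genes, 2 had a Tconv Ku70 region in their window, Mdga2 (2.67) and Nlgn2 (2.01), given by the highest fold enrichment, and 0 had a KO FOXP3 region, beside 17.2% and 4.25% of all genes. Mdga2 was chosen for its region and adds nothing to that count. Genes with a Treg Ku70 region included Mdga2 (2.60), Mdga1 (1.85), Nlgn2 (2.39) and Nrxn3 (2.04). Those with a WT FOXP3 region included Nlgn1 (2.59) and Nrxn3 (1.99). Neuroligins and neurexins are partners across the synapse, and several of these genes are very long.

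Of 10 other GPI-anchored adhesion genes of the immunoglobulin superfamily, with a median length of 861.5 kb, 0 had a Tconv Ku70 region, beside 17.2% of all genes and 14.4% of genes of a length like that of Mdga2. Treg Ku70 regions were listed at 5 of them (35.4% of all genes and 71.8% of those of like length), Cntn1 (2.41), Cntn2 (1.85), Cntn5 (2.22), Lsamp (2.22) and Negr1 (2.60). WT FOXP3 regions were listed at 6, Cntn2 (2.14), Cntn5 (2.29), Lsamp (2.29), Ntm (2.29), Opcml (1.84) and Negr1 (2.14), and KO FOXP3 regions at 3, Cntn1 (2.33), Lsamp (2.19) and Ntm (2.33). Among genes of like length 40.4% had a WT FOXP3 and 13.3% a KO FOXP3 region, against 12.0% and 4.25% of all genes.

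Of 13 genes of SFI1, the centrins and centriole assembly, 4 had a Tconv Ku70 region (17.2% of all genes), which besides Sfi1 (3.47) were Cetn2 (2.81), a centrin that SFI1 binds, Plk4 (3.17), the kinase that starts centriole duplication, and Cep192 (2.81). Treg Ku70 regions were listed at 5, near the 35.4% of all genes, namely Sfi1 (3.05), Cetn4 (1.85), Poc5 (2.60), Sass6 (1.85) and Stil (2.04). In FOXP3 lists, WT regions were listed at Cetn1 (2.59) and Cetn3 (1.99) and KO regions at Sfi1 (2.04) and Plk4 (2.33), beside 12.0% and 4.25% of all genes. Sfi1 was chosen for its region. Within the gene body, 1 of the 13 genes, Sfi1, had a Ku70 region, while 7.71% of all genes had a Treg Ku70 region there and 3.08% a Tconv Ku70 region.

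The genes whose highest fold enrichments over the 4 lists were closest to those of Mdga2 were Jmjd1c and Reep3, which are neighbours on chromosome 10, at a Euclidean distance of 0.033, and Mcu at 0.037. All 3 had a Treg Ku70 value of 2.60, a Tconv Ku70 value of 2.63 to 2.70 and no FOXP3 region. At Mdga2 the Treg value of 2.60 belongs to the weak intron 10 region, with 12 reads over the genome-wide background. The site shared by both Ku70 lists had 2.49 in Tregs, so this likeness joins 2 different regions of Mdga2. For Sfi1 they were Gm6040, Defb33 and Gm15056, neighbours on chromosome 8 at a distance of 0.318, where the highest fold enrichment was 3.17 for Tconv Ku70, 3.15 for Treg Ku70 and 2.02 for KO FOXP3. Over 4 values this likeness is a description of the lists and of nothing else.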

How the data were processed

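Chromatin immunoprecipitation sequencing of FOXP3 and Ku70 was analysed from 4 lists, grouped by the labels. Per their methods and the submitters' processing notes, the authors used FastQC, Trim Galore, Bowtie2 on mm10, Picard from GATK and MACS2 on the 2 pooled replicates against 1 input (p-value 0.05, no model, extension size 140); versions are not stated. The deposited lists give fold enrichment (a ratio) of each summit over the local background, its −log10 p-value and −log10 q-value, a score not used here, and the summit offset in bp. Depth per sample was not analysed here.

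Summits of 1 region were combined, keeping the strongest. Windows were the gene and 100 kb either side (GENCODE M21, mm10). Regions were ordered by −log10 q, then −log10 p. Presence in another list required 1 bp of overlap. Masked bases, 31-base words on both strands and alignments (BLAST 2.17.0) used the GRCm38.p6 sequence from RefSeq, soft-masked, and contigs of the lists were left out of sequence steps. The Mdga2 array was bounded by 60-bp windows that matched the array at 65% or more, 1 to 4 units away. Fold and p-value were solved for reads, as MACS2 defines them from a scaled pile-up and the highest of the input over 140 bp, 1 kb, 10 kb and the genome. Immunoprecipitated reads were taken where whole within 0.02. A single solution was found for 99.2% of Tconv Ku70 and 99.7% of Treg Ku70 regions and for all 21 described here. Where several fitted, the only solution with a whole-number or genome-wide background was taken and counted as single. The solved background was a value these input windows can give in 81.2% of the solved Tconv Ku70 and 89.9% of the solved Treg Ku70 regions. It was so for all 21 described here, in advance for any settled by that preference, and the other solutions are less certain. Intervals are exact Poisson (reads) and Clopper-Pearson (ratio), 95%, for counting error only. Steps were tested on simulated data.

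The members and the gene lists were chosen with earlier results of these data known. Named were the members with every region and the protein-coding genes in their windows, listed genes with a region (1 is not reported here), the 3 genes most like each member over the highest fold enrichment in the 4 lists (0 where none; genes within 1 Mb left out), and the genes nearest to regions up to place 5. No test was made, since each set has 1 list. Scripts ran in Python 3.11.15 with matplotlib 3.10.9, numba 0.67.0, numpy 2.4.6, pysam 0.24.0, scipy 1.17.1 and, for the genome index, samtools 1.23.1.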

Additional observations from a re-analysis of the deposited data

How the results depend on the processing

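No paired analysis was possible because each list pools its replicates, and for the same reason no replicate could be left out. Of 78 alternative values, 57 kept the value as reported (counts within 1.5 times) and 21 moved. Other windows, any overlap and a minimum −log10 p of 2 kept every count of regions at the members within 1.5 times. Ordered by fold enrichment, the Mdga2 site fell to place 183 and the Sfi1 site to 15. Chosen after seeing the data were the order by immunoprecipitated reads, with places 1 and 29, near copies at 80% identity in place of 90% (574 and 31 against 0 and 12), and the Sfi1 window without regions copied on the contig (0 KO FOXP3, 2 Treg Ku70 and 2 Tconv Ku70). Over 21 bases the summit copies were 11 and 20, and over 51 bases 1 each. Within 50 bp of the summit the masked share of the Sfi1 site was 44.6%. In the gene body alone, 7.71% of genes had a Treg Ku70, 3.08% a Tconv Ku70, 2.42% a WT FOXP3 and 0.908% a KO FOXP3 region. On the same rule the MDGA and neurexin list counted 3 genes for Treg and 1 for Tconv Ku70, and the centriole list 0 for WT FOXP3 and 1 for each other list. Each list combines 2 replicates, and a single input with few reads per summit, 1.76 to 2.12 at the genome-wide level in the Ku70 sets, limits what can be told apart.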
